A study of Arabidopsis thaliana with 54 samples.

Results

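The BT family of Arabidopsis thaliana consists of BT1 (AT5G63160), BT2 (AT3G48360), BT3 (AT1G05690), BT4 (AT5G67480) and BT5 (AT4G37610). These 5 genes were chosen by their gene identifiers from the 36632 rows of the count table, with earlier results of the same libraries known. Their levels are therefore described here across all 18 groups with their spread and without p-values. All 5 were among the 20720 genes that passed the filter on low counts. The RNA came from whole rosettes of the Col-0 accession grown with 16 h of light per day, and each library pooled 5 samples. C28P plants had an age of 28 d when their first cold at 4 °C began. C35P plants, the developmental control, had an age of 35 d at their first cold. C28PLT plants had been primed for 3 d at 4 °C at the age of 28 d, then returned to warmth for a lag of 7 d, and were then given a second cold period. Rosettes were sampled before the cold (0 h) and after 2, 4, 6, 12 and 24 h in it, with 3 libraries per group from 3 independent experiments. Of the later times, 24 h alone shared its time of day with 0 h. Plants kept warm at the intervening hours are not among these groups, and light was 200 µmol in warmth and 90 µmol in the cold. Temperature, light intensity and, from 2 to 12 h, time of day therefore cannot be told apart.

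BT proteins join an N-terminal BTB domain, which docks onto the ubiquitin ligase scaffold CUL3, to a TAZ zinc finger and a C-terminal calmodulin-binding region. They are adaptors that can select proteins for ubiquitination, and they also act in transcription together with bromodomain proteins. BT2 is the best studied member. It is known as a gene whose transcript is kept low by sugars and by light, and, with BT1, as a brake on nitrate uptake genes. BT1 was also isolated as a partner of the protein kinase PINOID. Little is established about the separate roles of BT3, BT4 and BT5.

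The 54 libraries held 23408399 to 34452480 counts each. Summed levels of 5 rosette leaf markers lay between 44700 and 100000 CPM (counts scaled to a common library size) in every library. Flower markers summed to at most 7.08 CPM. Of 5 root markers, 4 stayed under 1 CPM in every library, and the list summed to at most 55.6 CPM. The C28P 0 h library of experiment 1 stood apart from the other 0 h libraries in clock genes. PRR5, a clock gene of the later day, was at 77.2 CPM there and at 0.949 and 1.14 CPM in experiments 2 and 3. TOC1, an evening clock gene, was at 28.1 CPM there against 4.92 and 3.14 CPM. Results that use the C28P 0 h group are given with and without that library where it matters.

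The gene models below are those of RefSeq on build TAIR10.1, in which all 36632 identifiers were found. BT1 lies on chromosome 5 at 25333172 to 25335570 on the minus strand. BT2 lies on chromosome 3 at 17907767 to 17910738, BT4 on chromosome 5 at 26930539 to 26933352 and BT5 on chromosome 4 at 17670481 to 17672353, also on the minus strand. BT3 lies on chromosome 1 at 1706736 to 1709360 on the plus strand. Every member has 5 exons and encodes a protein of 364 to 383 residues. BT1 and BT2 are identical at 75.3% of aligned residues and BT4 and BT5 at 59.2%, whereas the other 8 pairs share 39.3% to 48.5%. The annotated BT4 span overlaps AT5G67470 on the opposite strand by 18 bp, and BT5 overlaps AT4G37608 on the opposite strand by 151 bp. The library kit marks strand, but the strand setting of the counting is not given in the sources used here, so reads of the overlapping stretches are uncertain.

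The 250 bases before the annotated start are shown for BT1, BT4 and BT5, whose levels differed most between times, and for BT3, which holds the most cold-element matches. Capitals mark matches to 9 motifs searched on both strands.
BT1 promoter, chr5:25335571-25335820, minus strand: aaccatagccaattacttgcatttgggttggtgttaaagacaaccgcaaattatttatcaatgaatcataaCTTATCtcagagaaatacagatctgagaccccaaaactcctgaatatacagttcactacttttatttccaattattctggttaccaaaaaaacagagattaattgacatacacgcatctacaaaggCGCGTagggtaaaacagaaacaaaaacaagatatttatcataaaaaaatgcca
BT4 promoter, chr5:26933353-26933602, minus strand: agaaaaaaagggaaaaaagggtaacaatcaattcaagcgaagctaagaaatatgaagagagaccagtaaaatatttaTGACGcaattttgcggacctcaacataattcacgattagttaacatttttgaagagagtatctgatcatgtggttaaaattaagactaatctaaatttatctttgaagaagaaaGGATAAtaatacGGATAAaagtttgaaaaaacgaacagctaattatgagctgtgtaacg
BT5 promoter, chr4:17672354-17672603, minus strand: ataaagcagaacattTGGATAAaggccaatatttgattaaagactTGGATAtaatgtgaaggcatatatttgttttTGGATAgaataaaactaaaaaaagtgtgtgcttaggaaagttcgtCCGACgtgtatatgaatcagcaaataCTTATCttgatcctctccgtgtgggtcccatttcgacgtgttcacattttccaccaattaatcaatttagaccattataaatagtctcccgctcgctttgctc
BT3 promoter, chr1:1706486-1706735, plus strand: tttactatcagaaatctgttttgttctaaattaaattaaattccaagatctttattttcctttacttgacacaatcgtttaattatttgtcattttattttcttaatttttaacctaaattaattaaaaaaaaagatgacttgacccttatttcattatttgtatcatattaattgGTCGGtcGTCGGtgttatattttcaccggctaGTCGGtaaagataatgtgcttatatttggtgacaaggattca
CCGAC, the core of the C-repeat that CBF cold regulators bind, stood 3 times in the BT3 window and once in that of BT5, and in 12% of all 27443 promoter windows of this length. TTATCC, an element linked with sugar repression, stood in the windows of BT2, BT4 and BT5 and in 12.5% of all windows. It shares TATCC with TATCCA, the amylase box, and the matches overlap in BT2 and at 1 place in BT5. TATCCA stood in BT2 and BT5 and in 13.6% of all windows. CGCGT, the core of a calmodulin-linked stress element, stood in BT1 and in 6.87% of all windows. GATAAG, the I-box of light-regulated genes, stood in BT1 and BT5 and in 12.3%. TGACG, the as-1 core, stood in BT4 and in 18.6%. The evening element AAAATATCT, the CCA1-binding site AAAAATCT and the G-box CACGTG stood in no BT window and in 2.36%, 6.69% and 6.49% of all windows. These matches are letters in a window and not evidence of binding.

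In warmth the family was dominated by BT1 and BT5. At 0 h in C35P, the level per kb of transcript was 13.6 ± 4.58 CPM for BT1 and 12.9 ± 3.2 CPM for BT5 (SD, n = 3), which do not differ beyond their spread. BT3 at 2.02 ± 0.679, BT2 at 1.82 ± 1.11 and BT4 at 1.56 ± 0.337 CPM per kb followed, again within each other's spread. On the same per-length scale BT5 made up 41% ± 12.2 of the summed family level at 0 h in C35P, 33.3% ± 13.3 in C28P and 25.8% ± 5.2 in C28PLT. After 2 h of cold its share was 2.33% ± 1.56, 1.22% ± 0.388 and 3.56% ± 3.56 in the same order. BT1 then supplied 77.3% to 78.3% of the family level in the 3 arms, and BT4 13.5% to 16.2%. At 24 h BT1 held 65.3% ± 4.02 in C28P, 56.4% ± 13.7 in C35P and 67.5% ± 17.3 in C28PLT, while BT4 held 20.3% to 26.2% and BT5 1.82% to 2.83%. The BT5 share was lower at 2 h and at 24 h than at 0 h in every library of all 3 arms. The BT1 share was higher at 2 h in every library, but at 24 h it overlapped 0 h in C35P and C28PLT, where experiment 3 was at 41% and 47.7% against 55.5% and 57.8% at 0 h. In whole rosettes, fewer cells of a type and less RNA per cell cannot be told apart.

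**Figure D1:**
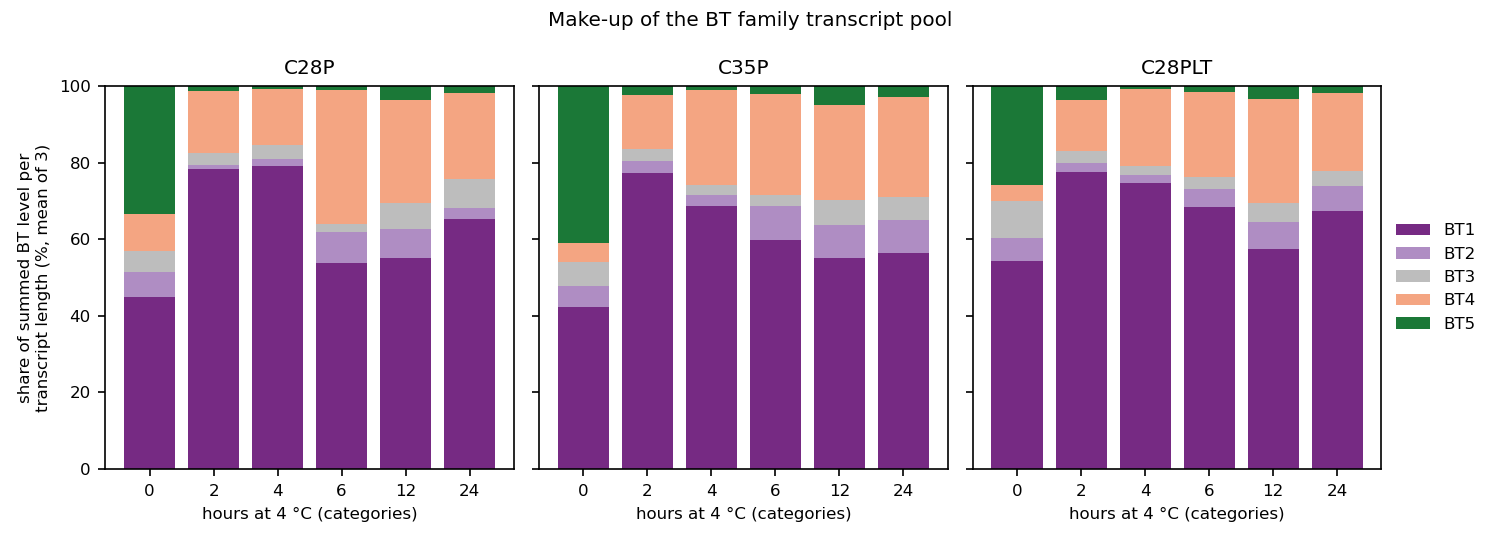
Stacked bars give each member's share (%, mean of 3 libraries) of the summed family level per kb of transcript at each hour of cold in the 3 arms. BT5 fills 25.8% to 41% of the bar at 0 h and at most 3.56% at 2 h, while BT1 fills over 77% at 2 h in each arm.

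BT1 had an early maximum, with its highest mean at 2 h in each arm and the same mean at 4 h in C28PLT. In C28P its level was 33.3, 19.7 and 21.5 CPM at 0 h in experiments 1, 2 and 3, and 91.4, 195 and 123 CPM at 2 h. In C35P it was 16.5, 26.3 and 33.5 CPM at 0 h and 103, 124 and 158 CPM at 2 h. In C28PLT it was 30.1, 15 and 32.7 CPM at 0 h and 180, 93.6 and 134 CPM at 2 h. Every 2 h library lay above every 0 h library of its arm, and the 3 arms overlapped each other at both times. The fitted log2 fold change at 2 h was 2.46 ± 0.44 (SE) in C28P, 2.33 ± 0.44 in C35P and 2.39 ± 0.44 in C28PLT. Without experiment 1 the C28P value was 2.95, and without experiment 2 it was 1.92.

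The later course of BT1 overlapped between the arms at 4 h. At 4 h its level was 58.8, 133 and 64.4 CPM in C28P, 53.7, 96.7 and 103 CPM in C35P and 134, 101 and 173 CPM in C28PLT. The C28PLT libraries overlapped those of both other arms. At 12 h the level had come down to 15.4 to 49.4 CPM over all 9 libraries, a range that overlapped 0 h in every arm. At 24 h it was 50.6, 43.1 and 54.9 CPM in C28PLT, 25.5, 38.7 and 36 CPM in C35P and 26.2, 35.9 and 39.9 CPM in C28P. C28PLT overlapped neither other arm. The share of all genes without such overlap is not given here, so nothing is read from it. The fitted difference of C28PLT from C35P was 0.57 ± 0.42 on the log2 scale, with a 95% interval of -0.27 to 1.41. The C28PLT libraries at 24 h also lay above the 0 h libraries of that arm, at 30.1, 15 and 32.7 CPM.

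**Figure D2:**
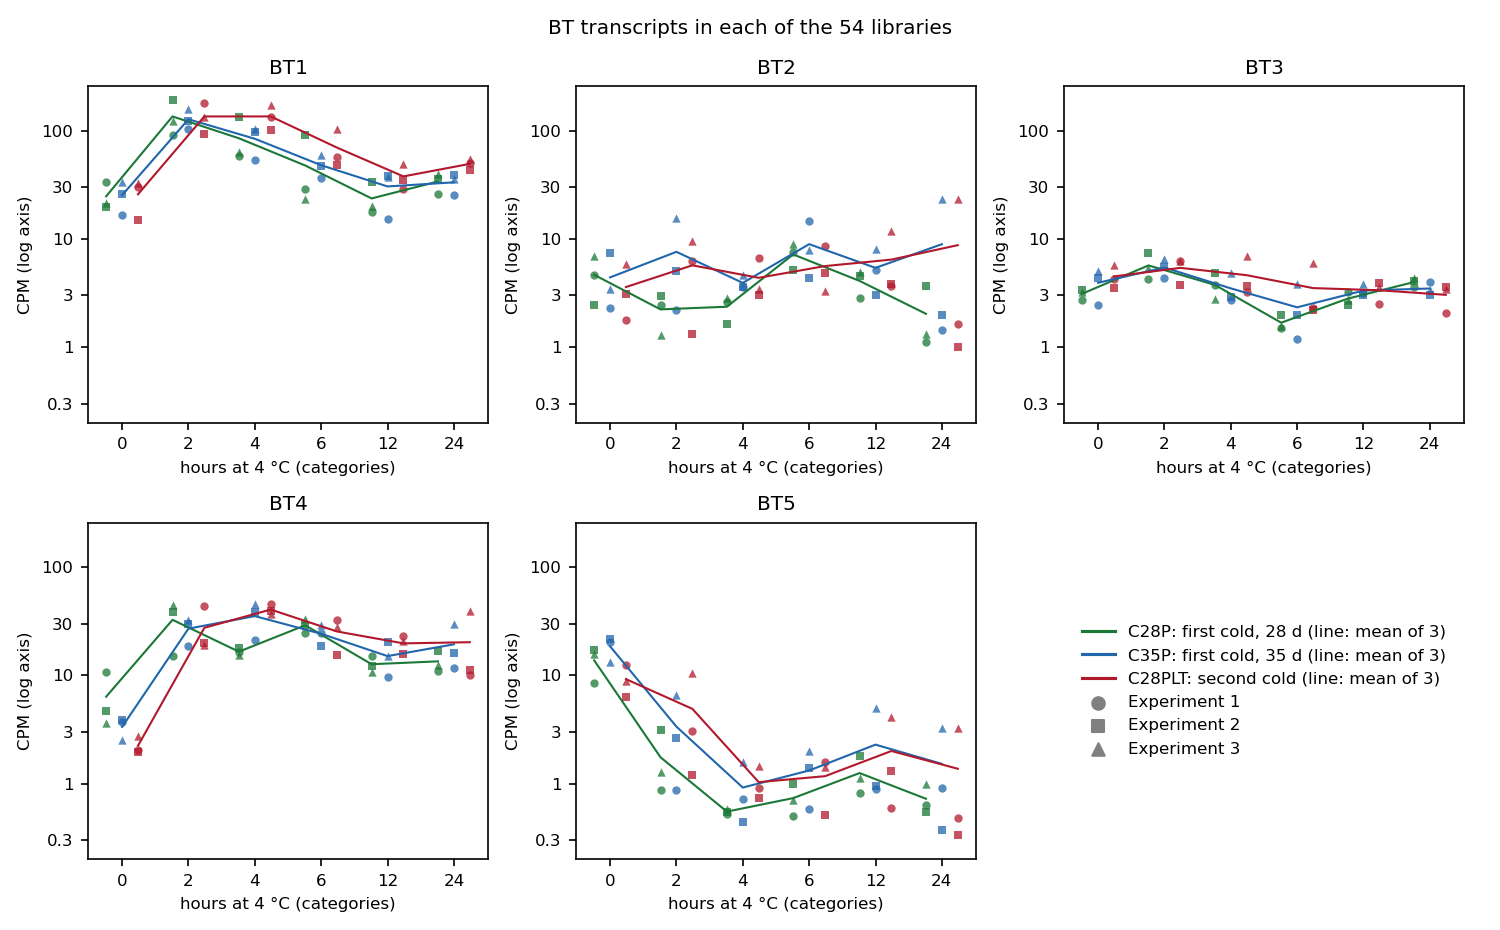
Level of each BT transcript (CPM, log axis) in all 54 libraries against hours at 4 °C, with lines through the mean of 3 libraries and symbols for the experiment. BT1 is highest at 2 h (128 to 136 CPM on average), with the same mean at 4 h in C28PLT. BT4 stays above its 0 h level. BT5 drops from 9.24 to 18.6 CPM at 0 h to 0.55 to 1.03 CPM at 4 h.

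BT4 also had higher levels by 2 h, and they lasted. In C35P it was at 3.68, 3.83 and 2.51 CPM at 0 h, at 18.9, 29.9 and 32.5 CPM at 2 h and at 21.2, 38.8 and 46.3 CPM at 4 h. In C28PLT it was at 2.05, 1.95 and 2.73 CPM at 0 h, at 43.9, 19.9 and 19.1 CPM at 2 h and at 45.4, 39.3 and 37.4 CPM at 4 h. All cold libraries of these 2 arms exceeded all of their 0 h libraries, at every time. At 24 h, the time that matches 0 h in the day, the level was still 11.6, 16.2 and 30.2 CPM in C35P and 10.2, 11.2 and 39.5 CPM in C28PLT. The fitted log2 fold change at 24 h was 2.53 ± 0.45 in C35P and 3.18 ± 0.47 in C28PLT. Without the experiment 3 library at 24 h the C28PLT value was 2.23.

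In C28P the contrast for BT4 was smaller and depended on the library that stands apart. Its levels at 0 h were 10.7, 4.68 and 3.66 CPM, the highest of them in that library. They were 15, 38.3 and 45 CPM at 2 h and 11, 16.9 and 12.5 CPM at 24 h. The fitted log2 fold change was 2.36 ± 0.45 at 2 h and 1.08 ± 0.43 at 24 h. Without the C28P 0 h library of experiment 1 these values were 2.97 and 1.69. The part of that library's clock state in the BT4 level was not tested. The log2 fold change of BT4 exceeded that of C28P in C28PLT by 2.80 ± 0.62 at 4 h and in C35P by 2.02 ± 0.61. At 24 h this excess was 2.096 ± 0.619 in C28PLT and 1.451 ± 0.611 in C35P, given as a description and not as a test. Without that library the C28P change of BT4 at 4 h was 1.99, in place of 1.39, beside 3.40 in C35P and 4.18 in C28PLT. These comparisons all use the same C28P 0 h group, and the levels at 24 h overlapped between all 3 arms.

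BT5 was at 0.337 to 21.8 CPM over the 54 libraries, and from 4 h of cold on it was lower than at 0 h in every library. At 0 h it was at 8.45, 17.2 and 15.7 CPM in C28P, at 20.6, 21.8 and 13.3 CPM in C35P and at 12.6, 6.3 and 8.8 CPM in C28PLT. At 4 h it was at 0.528, 0.546 and 0.577 CPM in C28P, at 0.726, 0.442 and 1.59 CPM in C35P and at 0.906, 0.732 and 1.44 CPM in C28PLT. No 4 h library of any arm reached any 0 h library. The fitted log2 fold change at 4 h was -4.63 ± 0.90 in C28P, -4.34 ± 0.87 in C35P and -3.17 ± 0.83 in C28PLT.

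The BT5 level did not return within a day. At 24 h it was 0.627, 0.543 and 0.997 CPM in C28P, with a fitted log2 fold change against 0 h of -4.24 ± 0.87. It was 0.918, 0.371 and 3.26 CPM in C35P and 0.484, 0.337 and 3.29 CPM in C28PLT, with changes of -3.62 ± 0.83 and -2.76 ± 0.82. Experiment 3 was the highest in both of these groups. Without experiment 3 the changes were -5.06 in C35P and -4.56 in C28PLT. At 2 h the lowering was uneven between libraries, and experiment 3 was the highest in C35P and C28PLT. BT5 stood at 0.872, 3.1 and 1.27 CPM in C28P and at 0.88, 2.63 and 6.57 CPM in C35P, below every 0 h library of the same arm. In C28PLT it stood at 3.03, 1.2 and 10.5 CPM, and only the experiment 3 library overlapped the 0 h libraries.

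BT2, the closest relative of BT1, did not share its early maximum. Its median over the 54 libraries was 3.68 CPM, with a range of 1.01 to 23.6 CPM. At 2 h it was at 2.46, 2.94 and 1.3 CPM in C28P, at 2.22, 5.03 and 15.6 CPM in C35P and at 6.25, 1.31 and 9.52 CPM in C28PLT. All 3 groups overlapped their 0 h libraries. The fitted log2 fold changes of BT2 against 0 h lay between -1.19 and 1.28 over the 15 later groups, with standard errors of 0.84 to 0.87, and BT2 overlapped 0 h in each of them.

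BT3 was the steadiest member, at 1.19 to 7.48 CPM in all libraries. Its mean was highest at 2 h in each arm, at 5.4 to 5.69 CPM. In C28P it was at 2.73, 3.36 and 3.24 CPM at 0 h, at 4.25, 7.48 and 5.33 CPM at 2 h and at 1.5, 1.96 and 1.57 CPM at 6 h, without overlap between the 3 times. In C35P and C28PLT the 2 h and 6 h levels overlapped those at 0 h. The fitted log2 fold changes of BT3 ranged from -0.89 to 0.87.

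**Figure D3:**
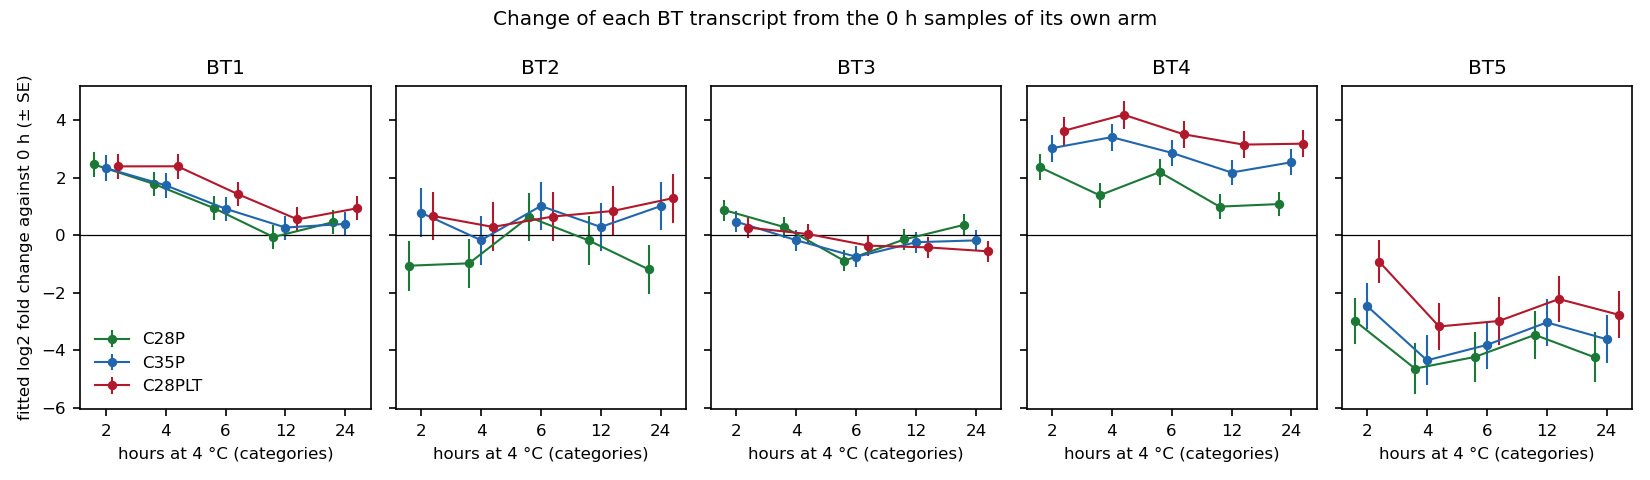
Fitted log2 fold change of each BT transcript against the 0 h samples of its own arm (points, with bars of 1 SE) at 2 to 24 h of cold. BT4 lies above 0 at all times in all arms, at 0.99 to 4.18, and BT5 lies below 0, at -0.92 to -4.63.

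The counts of members past an adjusted p under 0.05 in the edgeR quasi-likelihood fit are given only beside the share of all tested genes that passed, since the members were chosen with these results known, and nothing is read from them. At 2 h, BT1 and BT4 passed in each arm, when 0.391% of all genes did so in C28P, 1.96% in C35P and 2.78% in C28PLT. At 4 h, BT1, BT4 and BT5 passed in each arm, beside 7.92%, 10.3% and 12.7% of all genes. At 6 h, 2 members passed in C28P and C35P and 3 in C28PLT, beside 18.1%, 17.5% and 17.9%. At 12 h, 1 member passed in C28P and 2 in each other arm, beside 21.2%, 25.1% and 26.6%. At 24 h the members that passed were BT5 in C28P, and BT4 and BT5 in the other arms, beside 29.1%, 28.8% and 25.9% of all genes. The median log2 fold change of the 5 members at 2 h was 0.87, 0.78 and 0.67 in C28P, C35P and C28PLT, and that of all genes was 0.031, -0.004 and 0.

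Primed plants at the start of their second cold were compared with the developmental controls. At 0 h in C28PLT against C35P the fitted log2 difference was 0.03 ± 0.42 for BT1, -0.30 ± 0.85 for BT2, 0.19 ± 0.36 for BT3 and -0.58 ± 0.45 for BT4. It was -1.01 ± 0.75 for BT5, with a 95% interval of -2.52 to 0.50, from levels of 6.3 to 12.6 CPM in C28PLT and 13.3 to 21.8 CPM in C35P. No member passed the test in this comparison, in which 0.00483% of all genes passed. At 2, 4, 6, 12 and 24 h the edgeR test of C28PLT against C35P passed 0 members and 0% of all genes, with 176, 184, 114, 206 and 669 genes at an unadjusted p under 0.05, and DESeq2 also passed 0 genes at each of these times. The spread leaves room for differences. At 24 h the 95% interval of the log2 difference was -1.71 to 1.65 for BT2 and -0.79 to 0.92 for BT4.

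Changes in the cold, each against its own 0 h, were also compared between C28PLT and C35P. For BT4 the C28PLT change exceeded that of C35P by 0.60 ± 0.62 at 2 h, 0.78 ± 0.62 at 4 h and 0.97 ± 0.62 at 12 h on the log2 scale. For BT5 it was less negative by 1.55 ± 1.07 at 2 h and 0.85 ± 1.09 at 24 h. The members were chosen with these results known, so the differences are given with their spread as a description. Whether the arms differ or are alike is not read from them. Between C35P and C28P at 0 h, a comparison of ages, the groups of all 5 members overlapped, and no member passed, beside 0.0241% of all genes. BT4 had the lowest fitted log2 difference there, -0.93 ± 0.44, and it was -0.32 without the C28P library that stands apart.

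At 24 h, the experiment 3 libraries of C35P and C28PLT carried high levels of BT2, BT4 and BT5 together. BT2 was at 23.4 CPM in experiment 3 of C35P and at 1.45 and 1.98 CPM in experiments 1 and 2. In C28PLT it was at 23.6 CPM in experiment 3 and at 1.63 and 1.01 CPM in the others. In C28P the experiment 3 library was at 1.31 CPM, between 1.11 and 3.67 CPM, so the high level was not common to all libraries of experiment 3. BT1, at 36 and 54.9 CPM in the same 2 libraries, and BT3, at 3.39 and 3.45 CPM, stood close to their fellow libraries. Without experiment 3 the log2 fold change of BT2 at 24 h was -1.54 in place of 1.01 in C35P and -0.94 in place of 1.28 in C28PLT.

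The same 2 libraries were high in genes known to respond to darkness and to lack of sugar. DIN1, a senescence-associated dark-inducible gene, was at 21.3 CPM in experiment 3 of C35P against 0.584 and 1.33 CPM, and at 19.3 CPM in C28PLT against 1.54 and 1.04 CPM. DYL1, a dormancy-associated gene, was at 85.7 and 103 CPM in these libraries and at 0.862 to 10.9 CPM in the other 4. TPS8, a class II trehalose-6-phosphate synthase family gene, was at 18.1 and 17.6 CPM there and at 1.45 to 3 CPM in the others. Of the 16 tested genes of the dark and sugar-starvation list, experiment 3 was the highest library for 15 in C35P at 24 h and for 12 in C28PLT, and it exceeded both others more than 2-fold for 11 in each. Over all tested genes, experiment 3 was the highest for 27.9% and 33.3%, and more than 2-fold above both others for 3% and 5.16%. In C28P at 24 h it was the highest for 2 of the 16 genes, beside 24.4% of all genes. The pattern was not limited to these 2 libraries. At 12 h, experiment 3 was the highest for 13 of the 16 genes in C35P and 9 in C28PLT, and more than 2-fold above both others for 6 and 5, beside 2.36% and 4.94% of all genes. BT5 at 12 h was at 5.04 CPM in experiment 3 of C35P against 0.893 and 0.939 CPM, and at 4.12 CPM in C28PLT against 0.594 and 1.3 CPM. BT2 was at 8.03 and 11.8 CPM in these 12 h libraries and at 3.01 to 5.17 CPM in the other 4 of both arms. BT4, at 15.1 and 20.8 CPM, lay between its fellow libraries there. At 2 h, BT2 and BT5 were also highest in experiment 3 of both arms, with BT2 at 15.6 and 9.52 CPM. DIN1, DYL1 and TPS8 were picked after their values were seen. What set these libraries apart was not tested.

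**Figure D4:**
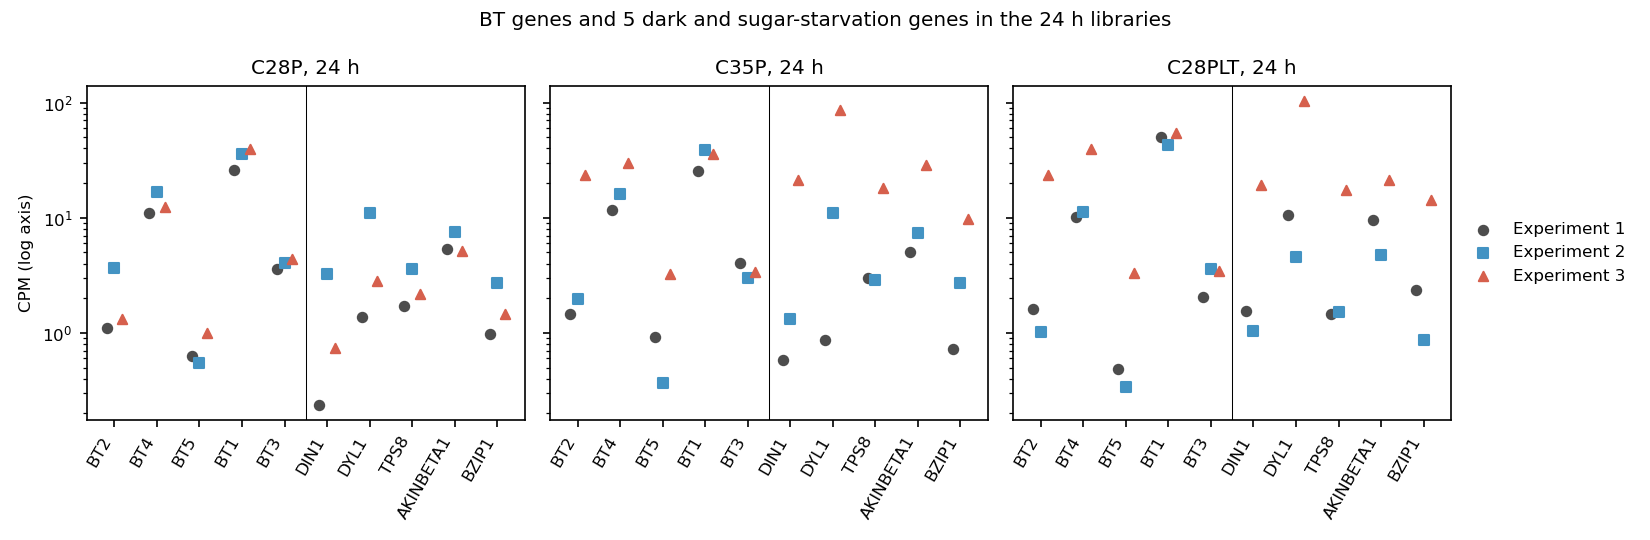
Level (CPM, log axis) of the BT genes and of 5 dark and sugar-starvation genes in the 3 libraries of each arm at 24 h, by experiment. In C35P and C28PLT the experiment 3 points of BT2, BT4, BT5 and the 5 other genes lie above those of experiments 1 and 2, while BT1 and BT3 lie together.

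Other genes of the pathways in which BT proteins are known to act were read in the same fit, with p-values adjusted over all tested genes. Of 22 genes of nitrate transport, assimilation and response, 18 were tested. At 2 h 1 was lower and 0 were higher in each arm, when 0.208%, 0.541% and 0.555% of all genes were lower and 0.183%, 1.42% and 2.22% were higher in C28P, C35P and C28PLT. The gene was LBD37, a nitrate-responsive transcriptional repressor. Its level was 68.8, 71.3 and 151 CPM at 0 h and 37.2, 26 and 20.9 CPM at 2 h in C28P, and 110, 96.9 and 156 CPM and then 38.5, 24.2 and 36.8 CPM in C35P. The log2 fold change was -1.79 ± 0.37 in C28P, -1.87 ± 0.37 in C35P and -1.92 ± 0.37 in C28PLT, with adjusted p of 0.0115, 0.00212 and 0.00117 by edgeR's quasi-likelihood test. Without experiment 2 these p were 0.496, 0.181 and 0.206, and without experiment 3 that of C28P was 0.75.

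At 24 h, 3 nitrate genes were higher and 3 lower in C28P, and 2 were higher and 2 lower in each of the other arms, when 13.9%, 14.7% and 14.6% of all genes were higher and 15.3%, 14% and 11.3% were lower. LBD37 fell in all 3 arms, by 1.69, 1.84 and 2.03 on the log2 scale in C28P, C35P and C28PLT, with adjusted p of 0.000577, 0.000215 and 5.77e-05 by edgeR. NRT1.1, the dual-affinity nitrate transporter, fell by 1.15 in both C28P and C35P and by 0.83 in C28PLT, with adjusted p of 0.000782, 0.000824 and 0.0135 by edgeR. Without experiment 2 the p of NRT1.1 was 0.0725 in C28P, and without the experiment 3 library at 24 h it was 0.106 in C28PLT. NRT3.1, the partner of the high-affinity transporter NRT2.1, was at 5.09, 11.3 and 6.33 CPM at 0 h and at 22.3, 46.6 and 24.5 CPM at 24 h in C35P. It rose by 2.04 ± 0.32 in C35P (adjusted p = 6.57e-06, edgeR) and by 1.75 ± 0.32 in C28PLT (adjusted p = 5.38e-05, edgeR). UPM1, a siroheme synthesis enzyme, rose by 1.76 ± 0.50 in C28P (adjusted p = 0.00671, edgeR), and its p was 0.0531 without experiment 2.

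Of the 16 dark and sugar-starvation genes, 1 was higher and 6 were lower at 24 h in C28P, and 1 was higher and 1 lower in C35P and in C28PLT. Over all genes, 13.9%, 14.7% and 14.6% were higher and 15.3%, 14% and 11.3% were lower in C28P, C35P and C28PLT. The median log2 fold change over the list was -1.2 in C28P, 0.26 in C35P and 0.1 in C28PLT, beside 0.038, 0.051 and 0.017 over all genes. Without the experiment 3 library at 24 h, 7 genes of the list passed in C35P and 6 in C28PLT, in place of 2 in each. The share of all genes that passed in those fits is not given here, so nothing is read from these counts. TPS8 fell by 2.58 ± 0.80 (adjusted p = 0.0134, edgeR) and BZIP1, a sugar-repressed transcription factor, fell by 2.21 ± 0.73 in C28P (adjusted p = 0.0192, edgeR). With single libraries or experiments left out, the largest adjusted p of these genes was 0.12 for TPS8 and 0.0937 for BZIP1. At 2 h, BZIP53, a partner of BZIP1, was the only gene of the list that passed, and it did so in C28PLT. It was higher there, at 149 ± 14.2 CPM (SD) against 50.8 ± 2.82 CPM at 0 h. The rise was 1.55 ± 0.44 on the log2 scale (adjusted p = 0.0438, edgeR), when 2.22% of all genes were higher. BZIP53 did not pass in C28P and C35P, where 1 and 0 genes of the list had an unadjusted p under 0.05 and DESeq2 passed 0. At 24 h BZIP53 fell by 1.60 ± 0.44 in C28P and by 2.13 ± 0.45 in C35P (adjusted p = 0.00547 and 0.000393, edgeR). Its 0 h levels were widely spread, at 114 ± 70.4 CPM (SD) in C28P and 159 ± 141 CPM in C35P. The log2 changes in experiments 1, 2 and 3 were -0.64, -2.19 and -1.45 in C28P and -3.6, -1.4 and -0.26 in C35P. ASN1 fell by 3.40 ± 1.04 in C28P (adjusted p = 0.0115, edgeR), from 5.62 ± 7.26 CPM (SD) at 0 h. TPS10 rose by 1.71 ± 0.39 in C35P and by 1.48 ± 0.39 in C28PLT (adjusted p = 0.00087 and 0.00354, edgeR).

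Clock genes were read as a reference for time of day. Of 10 core clock genes, 0, 3 and 2 were higher at 2 h in C28P, C35P and C28PLT, and 4, 7 and 6 were higher at 24 h, with 1 lower in C28PLT. Over all genes, 0.183%, 1.42% and 2.22% were higher at 2 h in the same order, and 13.9%, 14.7% and 14.6% at 24 h. Without the C28P 0 h library that stands apart, 8 passed in C28P at 24 h, and without experiment 2, 0 did. The share of all genes that passed in those 2 fits is not given here, so nothing is read from the counts. In C28P at 2 h, 4 had an unadjusted p under 0.05 by edgeR, and DESeq2 passed 0. PRR5 was at 0.745, 1.34 and 1.49 CPM at 0 h and at 10.2, 7.71 and 26.8 CPM at 24 h in C35P, a log2 fold change of 3.62 ± 0.84 (adjusted p = 0.00113, edgeR). TOC1 rose by 3.25 ± 0.48 in C35P and by 3.03 ± 0.48 in C28PLT, with adjusted p of 2.05e-06 and 5.71e-06 by edgeR. These differences stood at 24 h, the same hour of the day as 0 h. The part of clock state in the BT levels was not tested.

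Genes of the proteins that BT adaptors work with form a short list. Of 8 partner and target genes 6 were tested, while TAC1, the telomerase activator that acts through BT2, was at 0 CPM in all libraries and TERT did not pass the filter. CUL3A, the scaffold, was at 5.22, 12.4 and 6.04 CPM at 0 h and at 12.6, 7.21 and 10.7 CPM at 24 h in C35P, with overlap. At 24 h, 0 genes of this list passed in C28P, with 0 at an unadjusted p under 0.05 by edgeR and 0 by DESeq2, and 2 and 3 of the 6 were higher in C35P and C28PLT, when 14.7% and 14.6% of all genes were higher. PID, the kinase PINOID, rose by 1.16 ± 0.37 in C35P (adjusted p = 0.0166, edgeR) and by 1.60 ± 0.38 in C28PLT (adjusted p = 0.00127, edgeR). BET9, a bromodomain protein that binds BT2, rose 2.47-fold in C35P and 2.21-fold in C28PLT, with adjusted p of 0.0204 and 0.0463 by edgeR. RBX1, the RING subunit of the ligase, rose by 0.97 ± 0.25 in C28PLT (adjusted p = 0.00375, edgeR). Without experiment 3 the adjusted p by edgeR was 0.218 for PID in C35P, 0.159 and 0.263 for BET9 in C35P and C28PLT, and 0.11 for RBX1. Without experiment 1 it was 0.0578 for PID and 0.165 for BET9 in C35P, and without experiment 2 it was 0.281 for BET9 in C28PLT.

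Relatives that share a single domain with the BT proteins were read in the same way. Among 11 other BTB adaptors of CUL3 and NPR-type proteins, 1 was higher and 1 lower at 24 h in C28P, 2 were higher and 1 lower in C35P, and 1 was higher and 2 lower in C28PLT. These 2 to 3 of 11 genes stood beside 29.1%, 28.8% and 25.9% of all genes called in either direction, so nothing is read from the counts. BPM5, a MATH-BTB adaptor, rose by 0.64 ± 0.19, 0.78 ± 0.19 and 0.71 ± 0.19 in C28P, C35P and C28PLT, with adjusted p of 0.00779, 0.00131 and 0.00348 by edgeR. NPR4, a salicylic acid receptor, fell by 1.07 ± 0.36 in C35P (adjusted p = 0.0214, edgeR) and by 1.29 ± 0.36 in C28PLT (adjusted p = 0.00635, edgeR). Without experiment 3 the adjusted p of BPM5 by edgeR was 0.36 in C28P and 0.125 in C28PLT, and without experiment 1 it was 0.0519 in C35P. Without experiment 2 that of NPR4 was 0.345 in C35P and 0.0604 in C28PLT. Of the 5 histone acetyltransferases with TAZ domains, 4 were tested. At 24 h 0 of them passed in each arm by edgeR and by DESeq2, with 0 at an unadjusted p under 0.05. Earlier in the cold, 1 of the 4 was higher by edgeR at 4 h in C35P and C28PLT, beside 10.3% and 12.7% of all genes called. At 6 h 1 was higher in each arm, beside 18.1%, 17.5% and 17.9% of all genes called in C28P, C35P and C28PLT. DESeq2 also passed 1 in each of these comparisons.

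The genes whose profile over the 18 group means was most like that of a member were ranked by Pearson's r of the mean log2 CPM. The points share libraries, time of day and depth, and r is given as a description. For BT1 the most alike was CBF2, a regulator of the cold response, with r = 0.967, followed by AT2G31370 (0.952) and NAP5 (0.938). The highest group mean of NAP5 was only 1.95 CPM. CBF2 was at 36.5, 6.98 and 36.1 CPM at 0 h and at 384, 591 and 144 CPM at 2 h in C28P, and at 28.4, 5.82 and 8.63 CPM and then 594, 280 and 1960 CPM in C28PLT. CBF2 was also the most alike by Spearman's rho, at 0.95. For BT4 these genes were SIP2 (0.961), KUP9 (0.95), a potassium transporter, and AT1G63880 (0.943). By Spearman's rho they were AT1G63880 (0.932), DFL2 (0.928) and ABCB6 (0.92), without SIP2 and KUP9. For BT5 the most alike by Pearson's r were AT5G62770 (0.972), EID1 (0.97), an F-box protein of phytochrome A signalling, and PUB26 (0.963), a U-box ubiquitin ligase. By Spearman's rho they were EID1 (0.924), AT2G03550 (0.909) and AT4G04960 (0.909). EID1 had a much narrower range than BT5, from 9.67 CPM to 21.8 CPM over the group means.

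**Figure D5:**
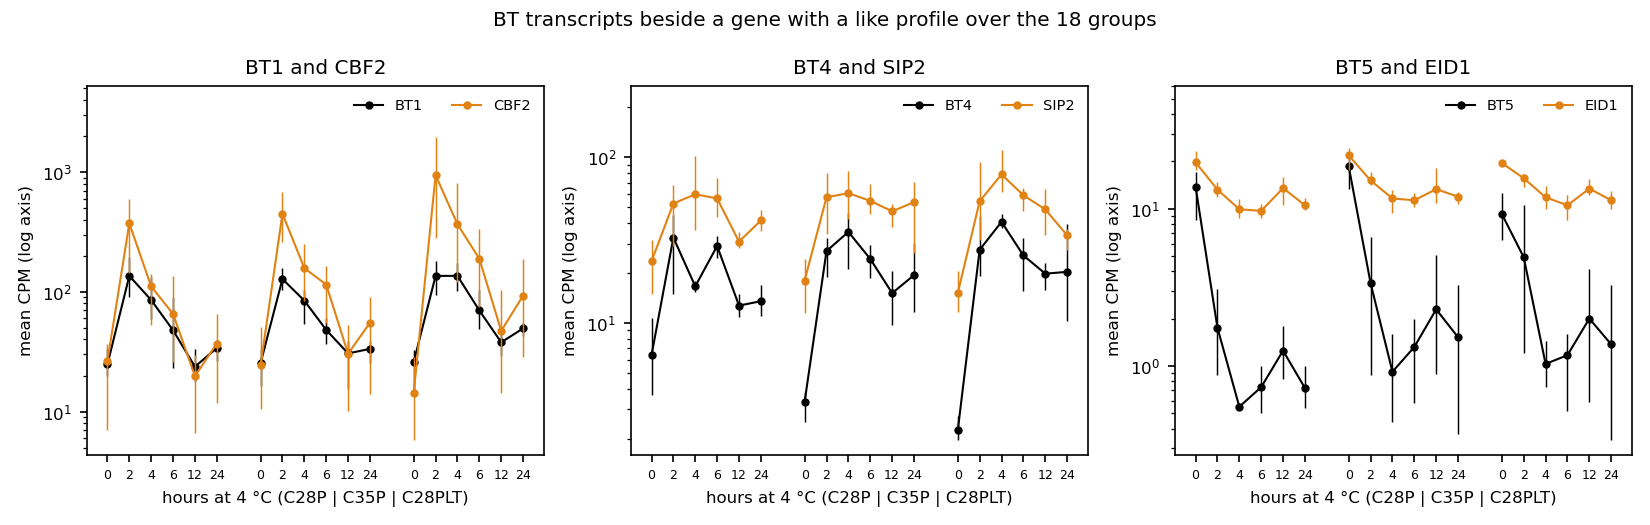
Mean level (CPM, log axis, vertical lines from the lowest to the highest of 3 libraries) of BT1, BT4 and BT5 in black beside CBF2, SIP2 and EID1 in orange over the 6 times of each arm. BT1 and CBF2 both are highest at 2 h in each arm, except that BT1 is as high at 4 h in C28PLT (136 CPM at both times).

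For BT3 the most alike were AT5G67140 (0.873), WRR4 (0.87) and NIA2 (0.865), a nitrate reductase, and for BT2 AT2G21780 (0.814), AT1G71980 (0.782) and AT5G24620 (0.769). The highest group mean of AT2G21780 was only 0.381 CPM, so its profile rests on very low counts. By Spearman's rho the most alike was AT1G33110 (0.899) for BT3 and AT5G24620 (0.808) for BT2. Among the members themselves, BT1 and BT4 had r = 0.72 over the 18 group means and BT4 and BT5 r = -0.76, the latter with a Spearman's rho of -0.37, whereas BT1 and BT2, the most similar proteins, had r = -0.08.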

How the data were processed

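The counts per gene were deposited by the authors as whole, unnormalized numbers for 54 libraries of Arabidopsis rosettes. Per the submitters' processing notes, Trimmomatic, STAR 2.7.9a, DESeq2 and build TAIR10 were used. The annotation, strand setting and treatment of multiply mapped reads were not given in the sources used here. From the counts, edgeR 4.0.16 (R 4.3.3) fitted 1 coefficient per group over all 54 libraries with TMM scaling, after filterByExpr with a minimum count of 10, which left 56.6% of the 36632 genes. Benjamini-Hochberg adjusted p under 0.05 was the threshold. Levels are CPM on TMM-scaled library sizes. Alternatives were DESeq2 1.42.0, its size factors, no filter, a replicate block, fits of only the groups compared, and libraries or experiments left out. The members and gene lists were chosen with earlier results of these data known. Genes of the other lists were named when called, at 5 CPM or more in a group and with 1 sign in all 3 experiments, up to 4 per list and comparison. The labels call the replicate numbers independent experiments. Deviations of libraries from their group means correlated at 0.121 on average within an experiment, with 105 of 153 group pairs above 0. The average between experiments, -0.0605, adds nothing, since the deviations of each group sum to 0. The pairing of samples by these numbers was therefore weak, and the main fit held no replicate block. The lowest chi-square per gene between replicates, over the 54 pairs within groups, was 23.2, so no replicate repeated another of its group.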

Additional observations from a re-analysis of the deposited data

How the results depend on the processing

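The log2 fold changes of the 5 members moved by no more than the replicate SD in 1395 alternative values, and the 50 that moved further all left out a library or an experiment. This SD is that of the 3 per-experiment changes of the same contrast. The limit was therefore widest where the experiments disagreed most, and a value within it could still change sign. These numbers are thus not a measure of stability. With single libraries or experiments left out, the 24 h change of BT2 ranged from -1.48 to 1.83 in C28PLT and from -1.54 to 2.12 in C35P, that of BT3 in C28P from 0.27 to 0.44, that of BT4 in C28PLT from 2.23 to 3.5 and that of BT5 in C28PLT from -4.56 to -2.09. With the experiment as replicate block the 24 h values in C28P, C35P and C28PLT were 0.38, 0.41 and 0.92 for BT1, -0.94, 0.43 and 0.92 for BT2, 0.35, -0.12 and -0.57 for BT3, 1.06, 2.48 and 3.12 for BT4, and -4.31, -4.05 and -3.23 for BT5. Under the block, 4 dark and sugar-starvation genes passed in C35P at 24 h in place of 2. The share of all genes under the block is not given here, so nothing is read from this count.

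With libraries or experiments left out, called genes at 24 h ranged from 0 to 8 (clock, C28P), 3 to 7 (clock, C28PLT), 1 to 7 (dark and sugar-starvation, C28P and also C35P), 0 to 6 (the same list, C28PLT) and 2 to 7 (nitrate, C28P). A fit restricted to the compared groups passed 2 clock genes in C28P and 1 dark and sugar-starvation gene in C28PLT, where no filter on low counts also passed 1. The shares of all genes that passed beside these list counts are not given here, so nothing is read from them. Of 663 alternative fits of 48 named list genes, 118 lost the call, 102 of them with a library or experiment left out. Over all genes, calls at 2 h in C28P numbered 81, against 231 by DESeq2, 155 with the block and 0 to 2391 with libraries or experiments left out. At 24 h they numbered 5958 in C35P and 5364 in C28PLT, against 2793 and 2823 with the fit restricted to the compared groups. At 0 h, C28PLT against C35P gave 1 call, 49 by DESeq2 and 0 with the block or without the filter, and C35P against C28P gave 5, 51 by DESeq2 and 2 without the filter. The causes of these shifts were not tested. Leaving out the C28P 0 h library of experiment 1 was chosen as a comparison after its values had been seen. With 3 libraries per group and standard errors near 0.8 on the log2 scale, BT2 and BT5 differences between arms were the least precisely measured.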
